A study of Mus musculus with 8 samples.

Results

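The genes described here are 38 cell proliferation genes of the mouse, a given list of genes of S phase and mitosis that was matched by symbol to the deposited tables. All 38 were found, of 47729 genes in those tables, and all 38 passed the filter on low counts that 18548 genes passed. RNA was sequenced from whole kidneys on postnatal day 8. The tested kidneys carried Six2Cre and Kctd1 fl/fl alleles and are labelled as a nephron-specific Kctd1 knockout (knockout, n = 4). Control littermates, labelled wildtype, formed the other group (n = 4), and their Cre and Kctd1 alleles are not given in the sources used here. Six2Cre acts in nephron progenitors, so that nephron epithelium is in its lineage while collecting duct, stroma, vessels and blood cells are not, and the libraries hold RNA of all of these cells. The labels do not say that each library came from its own animal, so the p-values cover the spread among libraries, which may be technical.

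A dividing cell passes through G1, S, G2 and mitosis. D-type and E-type cyclins with their kinases release E2F factors from the retinoblastoma protein, and E2F then turns on genes that license replication origins, copy DNA and make nucleotides. Later in the cycle, B-MYB and FOXM1 together with the MuvB complex turn on the genes of mitosis. In the mouse kidney, nephron formation ends within the first days after birth, and tubules then lengthen by cell division.

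The 2 programmes are known by short letters in their promoters, so windows of member promoters are shown first. The windows printed were picked because they hold such letters, which the windows of some members lack. RefSeq windows of 300 bases (GRCm38.p6), from 250 bases before the annotated start to 50 bases after it, were matched for 29 of the 38 genes. Ccnb2 encodes a B-type cyclin of mitosis and Plk1 a mitotic kinase, while Cdc6 and Mcm6 encode proteins that license replication origins. Capitals mark CCAAT, the letters TTTGAA of the cell cycle genes homology region (CHR), and the E2F letters TTTCCCGC, TTTGGCGC or GGCGGGAA, each searched on both strands.
Ccnb2, chr9:70421505-70421804, minus strand: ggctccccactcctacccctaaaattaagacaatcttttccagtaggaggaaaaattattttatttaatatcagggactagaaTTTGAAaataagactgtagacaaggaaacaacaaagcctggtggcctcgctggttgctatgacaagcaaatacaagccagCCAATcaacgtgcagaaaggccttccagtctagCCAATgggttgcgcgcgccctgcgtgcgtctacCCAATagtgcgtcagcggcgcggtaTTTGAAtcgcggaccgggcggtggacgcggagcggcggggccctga
Plk1, chr7:122159185-122159484, plus strand: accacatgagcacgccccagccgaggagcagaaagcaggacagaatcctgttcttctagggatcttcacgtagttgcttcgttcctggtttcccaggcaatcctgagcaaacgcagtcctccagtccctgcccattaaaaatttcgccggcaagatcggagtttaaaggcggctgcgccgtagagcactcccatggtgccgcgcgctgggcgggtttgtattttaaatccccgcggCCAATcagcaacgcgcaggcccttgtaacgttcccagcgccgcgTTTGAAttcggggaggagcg
Cdc6, chr11:98907901-98908200, plus strand: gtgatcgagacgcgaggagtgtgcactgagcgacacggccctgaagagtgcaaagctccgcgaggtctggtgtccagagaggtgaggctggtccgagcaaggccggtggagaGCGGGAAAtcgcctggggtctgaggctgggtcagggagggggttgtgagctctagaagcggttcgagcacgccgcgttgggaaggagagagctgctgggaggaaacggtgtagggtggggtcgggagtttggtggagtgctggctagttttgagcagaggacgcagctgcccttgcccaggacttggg
Mcm6, chr1:128359656-128359955, minus strand: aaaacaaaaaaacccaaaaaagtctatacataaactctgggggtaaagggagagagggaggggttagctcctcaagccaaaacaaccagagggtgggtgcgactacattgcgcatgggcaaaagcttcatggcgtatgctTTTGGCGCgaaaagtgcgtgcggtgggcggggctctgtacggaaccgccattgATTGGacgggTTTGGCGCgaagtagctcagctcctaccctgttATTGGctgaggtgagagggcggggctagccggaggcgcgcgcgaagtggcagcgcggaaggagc

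Ccnb2 held CHR letters at bases 84 and 255 of its window with CCAAT at bases 164, 197 and 230 between them, and Plk1 held CCAAT at base 237 and CHR letters at base 281. Cdc6 held 1 E2F match, at base 113, and Mcm6 held 2, at bases 141 and 204. The Cdc6 window, set by the RefSeq start, lies inside the gene as GENCODE annotates it, with a start at chr11:98907801. E2F letters were found in 8 of 15 windows (53.3%) of the G1 to S and replication genes, namely in Cdk2, Cdc6, Cdt1, Mcm3, Mcm5, Mcm6, Mcm7 and Rrm1, and in 0 of 15 windows of the mitotic and chromosome genes. Over all 32851 windows of the table, 3.21% held them. CHR letters showed the opposite order, with 11 of 15 mitotic and chromosome windows (73.3%), 1 of 15 G1 to S and replication windows (6.67%, Mcm2) and 17.9% of all windows. CCAAT was in 24 of the 30 member windows (80%) and in 37.4% of all. Mcm7 had 2 windows. A match to TTTCCCGC can overlap a match to GGCGGGAA on the other strand, and a match of letters is not a binding site. The windows of Ccnd1, Ccnd2, Ccne2, Mcm4, Ccna2, Foxm1, Aurkb, Kif20a and Tpx2 were not matched.

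Library totals were 14457760 to 20066225 counts in knockout kidneys and 14957478 to 20741076 in wildtype kidneys. Kctd1, the targeted gene, measured 22.4, 25.4, 25.8 and 23.5 CPM (counts scaled to library size with edgeR's TMM factors) in knockout 1 to 4, against 32.1, 28.9, 32.6 and 32.6 CPM in wildtype 1 to 4. The highest knockout library was below the lowest wildtype library, but the log2 fold change, -0.38 ± 0.09 (SE), did not pass (quasi-likelihood test of edgeR, adjusted after Benjamini and Hochberg, BH, over all genes tested: BH-adjusted p = 0.279; by DESeq2, BH-adjusted p = 0.0224). All 7 kidney epithelium markers were present, from the podocyte gene Nphs1 to the collecting duct gene Aqp2. Rn18s-rs5 and other rows like ribosomal RNA, 6 in all, took 33.9% of the TPM of knockout 2, while they took 4.28% to 14.6% in the other knockout libraries and 3.56% to 8.18% in wildtype libraries. Knockout 2 and wildtype 3 were the only libraries with more than 151 counts of Xist, the RNA of the inactive X chromosome in females.

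The proliferation genes were expressed in every library of both groups. TPM, which is per transcript length, is used for levels. Cdk1, the kinase that drives entry into mitosis, had the highest mean over the 8 libraries at 42.0 TPM, and Cdc6 the lowest at 2.06 TPM. Pcna, the sliding clamp of DNA polymerase, followed Cdk1 at 38.8 TPM, Ccnd1 at 37.8, Ccnd2 at 35.5, Top2a at 33.0 and Tyms, which makes thymidylate, at 30.3 TPM. Cdk1 measured 46.6, 26.4, 47.1 and 39.8 TPM in knockout 1 to 4, against 48.6, 38.8, 43.1 and 45.1 TPM in wildtype 1 to 4, a spread wider than the steps between these 6 genes. Counts of Pcna were split with a pseudogene, as described below. The place of Pcna below Cdk1 is therefore uncertain. The order also rests on the length set for each gene, and it was not the order in CPM. In CPM, Cdk1 averaged 45.5 in knockout and 45.8 in wildtype kidneys, below Ccnd1 (251 and 276) and Mki67 (126 and 127). Mcm3 (56.1 and 58.0 CPM) and Mcm4 (52.3 and 55.0 CPM) were alike in CPM but stood at 28.0 and 7.76 TPM. The low end in TPM held the cyclin E genes Ccne1 (3.29 TPM) and Ccne2 (2.33 TPM), the motor Kif11 (3.17 TPM), the checkpoint kinase Bub1 (3.02 TPM) and Cdc6. Mki67 stood in the middle of the TPM order at 6.21 TPM. Its protein Ki-67 coats mitotic chromosomes and is the usual stain for dividing cells.

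**Figure D1:**
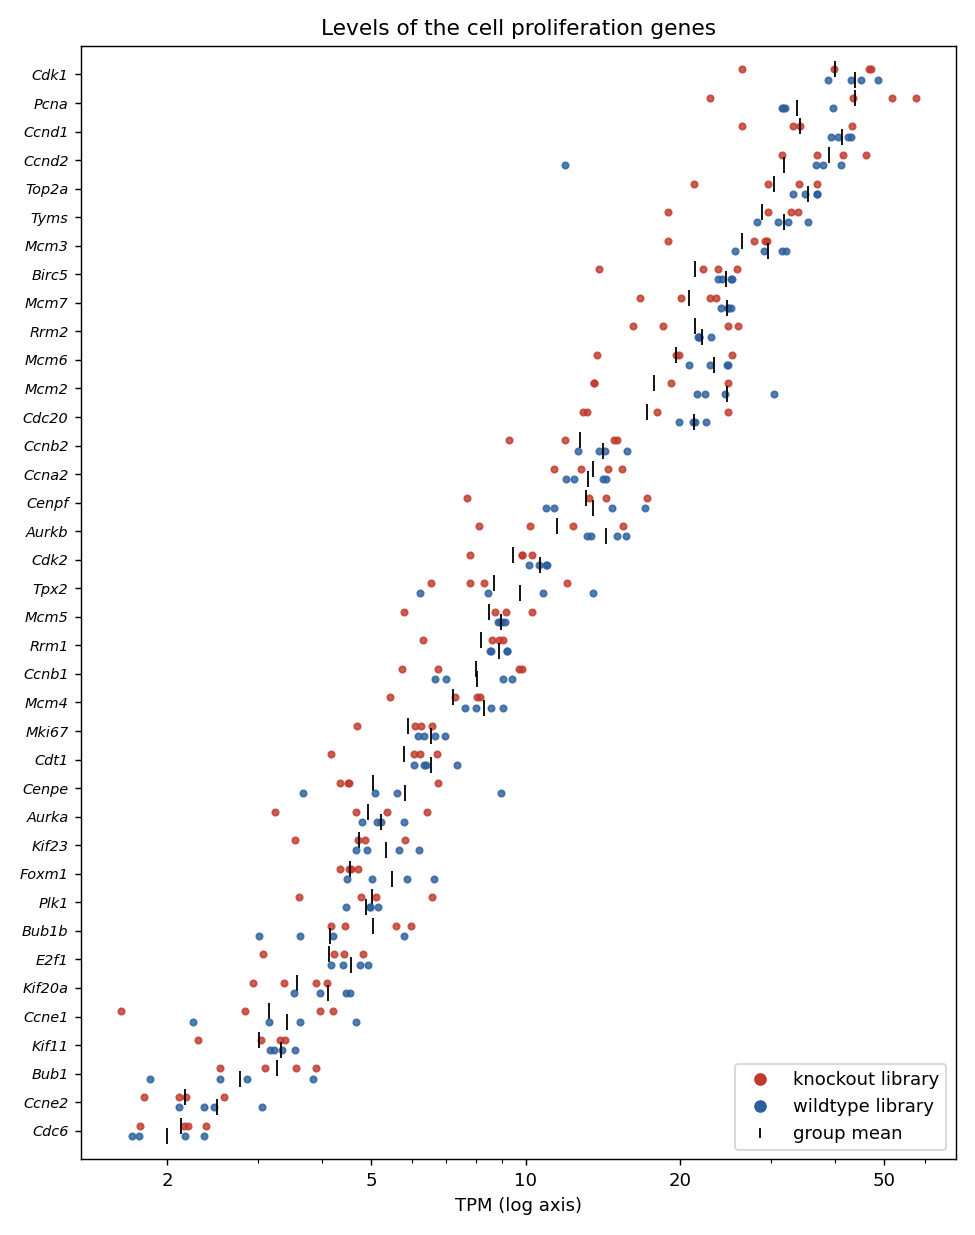
TPM of each of the 38 genes (log axis) in 4 knockout (red) and 4 wildtype (blue) libraries, ordered by the mean over all 8, with vertical ticks at group means. Levels run between 42.0 TPM for Cdk1 and 2.06 TPM for Cdc6, and the lowest red point of many genes is knockout 2. Pcna is shown without the counts given to its pseudogene.

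Summed over the 38 genes, TPM was 575.5, 391.9, 569.3 and 560 in knockout 1 to 4, against 554, 572, 565 and 567 in wildtype 1 to 4. Knockout 2 alone stood apart, the library with the high TPM on ribosomal rows. In CPM the same sums were 2115, 2003, 2078 and 1943 in knockout libraries, against 1960, 2130, 2036 and 1902 in wildtype libraries, and there knockout 2 lay inside the range of the others. The comparisons of groups therefore use counts and CPM.

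Expression of the proliferation genes was not shown to differ between knockout and wildtype kidneys. Of the 38 genes, 0 passed the threshold (BH-adjusted p under 0.05 over all genes tested, by edgeR), where 15 of 18548 genes did (0.0809%; 52 without wildtype 4 and 29 without knockout 3). By direction, 0 of the 38 were called higher, against 0.0323% of all genes, and 0 lower, against 0.0485%. DESeq2 called 0 of the 38 and 153 of 23423 genes (0.653%). At an unadjusted p under 0.05 the list held 2 genes, where 6.18% of all genes passed. Both, Pcna and Bub1b, were higher and 0 were lower, where 3.11% of all genes were higher and 3.08% lower. None of the 38 had groups that did not overlap in CPM, where 4.03% of all genes did. In bulk kidney, fewer cells of a type and less RNA per cell cannot be told apart.

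The log2 fold changes, knockout over wildtype, ran between -0.34 (Mcm2) and 0.49 (Pcna), with a median of -0.02, against 0.00 over all genes tested. Of the 38, 25 were negative (65.8%) and 13 positive, where 49.7% of all genes were negative. Without the 2 libraries with Xist reads 16 were negative. Single libraries left out also moved the number, to 18 without knockout 2, 17 without wildtype 2 and 26 without wildtype 1. The median size of the change was 0.07, against 0.11 over all genes, and the median SE was 0.11, against 0.14. For 37 genes the 95% interval lay within a 2-fold change in either direction, and for 31 within a 1.5-fold change. Ccnd2 was the exception to the first, with an interval of -0.54 to 1.45. These intervals give the size of change that the 8 libraries leave possible for each gene.

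**Figure D2:**
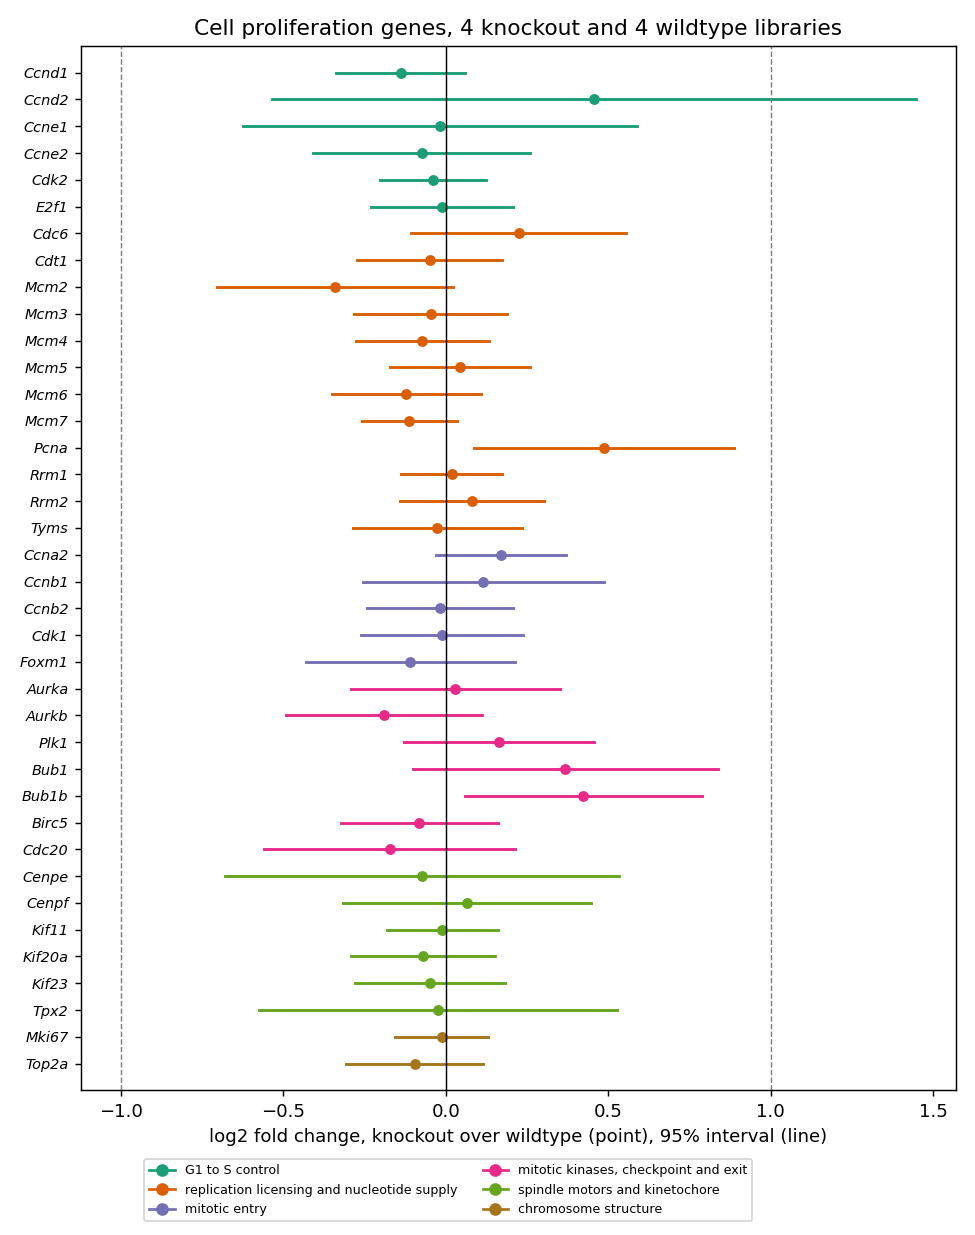
Log2 fold change, knockout over wildtype, of each gene (point) with its 95% interval (line), coloured by role, with dashed lines at a 2-fold change. Intervals of 37 genes lie between the dashed lines, Ccnd2 crosses one, and those of Pcna and Bub1b do not reach 0.

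Ki-67 and topoisomerase II, the 2 chromosome proteins used most often to find dividing cells, had groups that overlapped and some of the narrower intervals of the list. Mki67 (chr7:135689784-135716361, minus strand, GRCm38) measured 123, 126, 135 and 121 CPM in knockout 1 to 4, against 119.5, 129, 131 and 129 CPM in wildtype 1 to 4. The ranges lay over each other, and the coefficient of variation was 5.02% in knockout and 4.05% in wildtype libraries. The means were 126 ± 6.32 and 127 ± 5.14 CPM in knockout and wildtype kidneys (SD, n = 4 each), with a log2 fold change of -0.01 ± 0.06 (SE) and a 95% interval of -0.16 to 0.13 (BH-adjusted p = 0.991 by edgeR).

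Top2a (chr11:98992943-99024189, minus strand) encodes topoisomerase II alpha, which untangles sister chromatids. Its levels were 89.6, 85.1, 113 and 97.7 CPM in knockout 1 to 4, against 101, 112, 97.3 and 101 CPM in wildtype 1 to 4. Knockout libraries held both the lowest and the highest value. This gave a log2 fold change of -0.10 ± 0.10 (SE; 95% interval -0.31 to 0.11; BH-adjusted p = 0.939 by edgeR). With 1 library left out it was -0.18 without knockout 3, -0.04 without knockout 2, -0.06 without knockout 1 and -0.05 without wildtype 2, and within 1.5 times its value otherwise.

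Among the 6 genes of G1 to S control, 5 had a negative log2 fold change and 1 a positive one, with a median of -0.03. Ccnd1 (chr7:144929931-144939925, minus strand) encodes cyclin D1, a D-type cyclin that links growth signals to Cdk4 and Cdk6. It measured 301, 242, 234 and 226 CPM in knockout 1 to 4, against 286, 276, 274 and 269 CPM in wildtype 1 to 4. Knockout 1 was the highest of the 8 libraries and the other 3 knockout libraries were the lowest. The log2 fold change was -0.14 ± 0.09 (SE; BH-adjusted p = 0.898 by edgeR), and it was -0.24 without knockout 1 and -0.09 without knockout 4.

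Ccnd2 (chr6:127125162-127152193, minus strand), the gene of cyclin D2, varied most between libraries. It measured 178, 294, 203 and 144 CPM in knockout 1 to 4, against 174, 178, 192 and 52.3 CPM in wildtype 1 to 4. Wildtype 4 lay far below the other 7 libraries and knockout 2 above them. Knockout over wildtype, the log2 fold change was 0.45 ± 0.42 (SE; BH-adjusted p = 0.939 by edgeR), and it was 0.17 without wildtype 4 and 0.23 without knockout 2.

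Ccnd3, the third D-type cyclin gene, was added after its values were seen. Its mean over the 8 libraries was 136 TPM, against 37.8 TPM for Ccnd1 and 35.5 TPM for Ccnd2. That order did not hold in CPM. Ccnd3 averaged 128.5 CPM in knockout and 148 CPM in wildtype kidneys, against 251 and 276 for Ccnd1 and 204.5 and 149 for Ccnd2. It measured 161.5, 138, 86.4 and 128 CPM in knockout 1 to 4, against 141, 159.9, 124 and 165 CPM in wildtype 1 to 4. Wildtype 4, lowest for Ccnd2, was highest for Ccnd3. Summed over the 3 D-type cyclins the libraries held 639.7, 674, 524 and 498 CPM in knockout 1 to 4, against 602, 614, 590.3 and 486 CPM in wildtype 1 to 4, so the sums overlapped. The E-type cyclin genes Ccne1 and Ccne2, their kinase gene Cdk2 and the transcription factor gene E2f1 had log2 fold changes of -0.08 to -0.01.

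**Figure D3:**
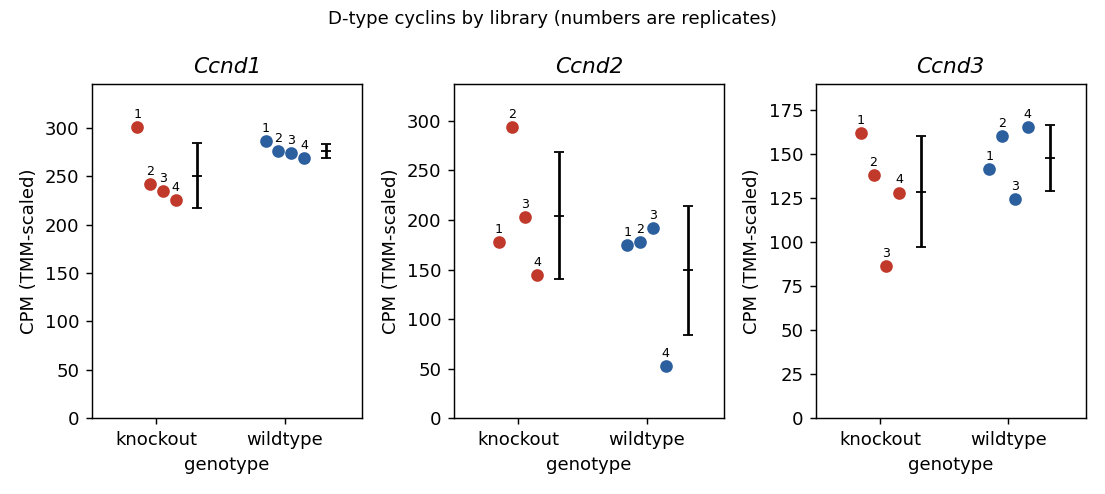
CPM of the D-type cyclin genes in each library, knockout (red) left of wildtype (blue), with replicate numbers beside the points and the group mean and SD as a bar. Wildtype 4 is at 52.3 CPM for Ccnd2, below every other library, and at 165 CPM for Ccnd3, above every other library.

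The 12 genes of replication licensing and nucleotide supply held the largest differences in either direction, Pcna and Mcm2. Of the 12, 7 had a negative log2 fold change and 5 a positive one, with a median of -0.04. Mcm2 (chr6:88883474-88898780, minus strand) encodes a subunit of the MCM helicase that unwinds origins. It measured 68.3, 49.7, 38.1 and 50.3 CPM in knockout 1 to 4, against 56.9, 62.3, 65.6 and 76.7 CPM in wildtype 1 to 4. Knockout 1 lay among the wildtype libraries and the other 3 knockout libraries below them. For Mcm2 the log2 fold change was -0.34 ± 0.16 (SE; 95% interval -0.70 to 0.02; BH-adjusted p = 0.833 by edgeR), and it was -0.51 without knockout 1 and -0.22 without knockout 3. The other 5 MCM subunit genes of the list, whose products sit in the same ring, had log2 fold changes of -0.12 (Mcm6), -0.11 (Mcm7), -0.07 (Mcm4), -0.05 (Mcm3) and 0.04 (Mcm5).

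Pcna had the smallest p of the 38, and its counts were split with a pseudogene. Pcna (chr2:132249162-132253314, minus strand) measured 125, 65.7, 114 and 89.8 CPM in knockout 1 to 4, against 66, 69.96, 66.8 and 78.6 CPM in wildtype 1 to 4. Knockout 2 was the lowest of the 8 libraries and the other 3 knockout libraries were the highest. The log2 fold change was 0.49 ± 0.18 (SE; 95% interval 0.09 to 0.89; BH-adjusted p = 0.70 by edgeR).

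Pcna-ps2 (chr19:9283380-9284160, plus strand), a processed pseudogene, is a copy of the coding part of the Pcna transcript. The 2 aligned over 781 bases with 6 differences and 0 gaps (99.2% identity), and the longest identical run was 246 bases. The first 150 aligned bases are shown, which start at base 280 of the 1518-base Pcna transcript (GENCODE annotation, GRCm38), with the only base that differs in capitals.
Pcna: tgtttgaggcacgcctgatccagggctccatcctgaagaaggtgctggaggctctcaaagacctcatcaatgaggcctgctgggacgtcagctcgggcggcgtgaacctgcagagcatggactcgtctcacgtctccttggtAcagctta
Pcna-ps2: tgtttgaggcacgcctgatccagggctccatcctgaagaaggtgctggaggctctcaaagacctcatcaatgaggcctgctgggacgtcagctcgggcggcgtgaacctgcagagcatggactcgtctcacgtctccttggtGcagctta

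Of the 31-base words in the sequence of Pcna-ps2, 75.2% also occur in Pcna, so reads from those stretches match both genes. The pseudogene, chosen after its values were seen, was given 6, 884, 501 and 756 counts in knockout 1 to 4, against 1128, 900, 1285 and 645 counts in wildtype 1 to 4. Its share of the summed counts was 0.301%, 42.8%, 23.2% and 29.5% in knockout libraries, against 51%, 46.2%, 48.6% and 28.3% in wildtype libraries. Summed, the 2 rows measured 125.5, 115, 149 and 127 CPM in knockout 1 to 4, against 135, 130.1, 129.9 and 109.6 CPM in wildtype 1 to 4.

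The sums overlapped, at 129 ± 14.3 CPM in knockout kidneys and 126 ± 11.2 CPM in wildtype kidneys (SD, n = 4 each). Their log2 fold change was 0.03 ± 0.10 (SE; BH-adjusted p = 0.981 by edgeR), so the level of Pcna on its own is uncertain. Of the other members, 7 had such a partner among the counted rows, and the highest partner count was 7.81% of its member's (Plk-ps1, for Plk1).

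**Figure D4:**
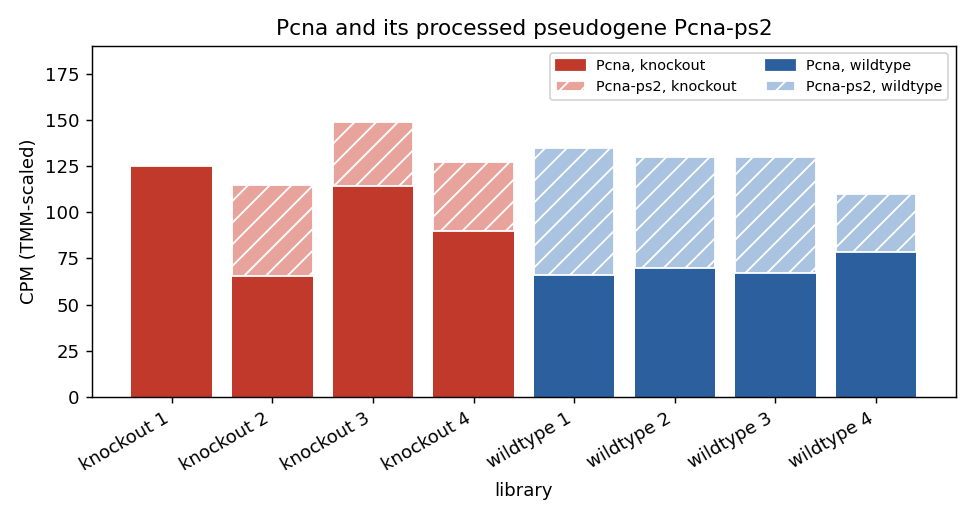
Stacked bars of CPM for Pcna (solid) and Pcna-ps2 (hatched) in each library, knockout (red) left of wildtype (blue). The solid parts differ between libraries, while the whole bars lie between 109.6 and 149 CPM in both groups.

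Origin licensing needs Cdc6 and Cdt1, which load the MCM ring. Cdc6 had a log2 fold change of 0.22 ± 0.15 (SE; 95% interval -0.11 to 0.56) and Cdt1 one of -0.05 ± 0.10 (SE). The genes of nucleotide supply had log2 fold changes of 0.02 for Rrm1 and 0.08 for Rrm2, the 2 subunits of ribonucleotide reductase, and -0.03 for Tyms.

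Of the 5 genes of mitotic entry, 3 were negative and 2 positive, with a median of -0.01. Ccna2 encodes cyclin A2, which acts in S phase and at entry into mitosis. It measured 53.6, 62.8, 61.4 and 61.2 CPM in knockout 1 to 4, against 47.9, 59.5, 50.5 and 54.5 CPM in wildtype 1 to 4. Knockout 2, 3 and 4 lay above all wildtype libraries and knockout 1 among them. The log2 fold change was 0.17 ± 0.09 (SE; 95% interval -0.03 to 0.37; BH-adjusted p = 0.842 by edgeR).

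Cdk1 measured 50.7, 38.04, 52.1 and 41.1 CPM in knockout 1 to 4, against 50.6, 42.5, 45.5 and 44.7 CPM in wildtype 1 to 4, with the knockout libraries at both ends of the range. Its log2 fold change of -0.01 ± 0.11 (SE) changed sign under some settings. Foxm1, the forkhead factor of the mitotic programme, measured 27.4, 37.9, 26.8 and 26.3 CPM in knockout 1 to 4, against 26.1, 30.6, 34.5 and 36.5 CPM in wildtype 1 to 4. The highest of the 8 was knockout 2, and the groups overlapped. The B-type cyclin genes Ccnb1 and Ccnb2 had log2 fold changes of 0.11 ± 0.17 and -0.02 ± 0.10 (SE).

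The 7 genes of mitotic kinases, checkpoint and exit had 3 negative and 4 positive log2 fold changes and a median of 0.03. Bub1b (chr2:118598211-118641591, plus strand) encodes BubR1, which holds back anaphase until every kinetochore is attached. It measured 30.2, 29.7, 24.4 and 30.7 CPM in knockout 1 to 4, against 21.7, 19.8, 15.8 and 28.5 CPM in wildtype 1 to 4. Knockout 3 and wildtype 4 were where the groups overlapped. The log2 fold change was 0.42 ± 0.16 (SE; 95% interval 0.06 to 0.79; BH-adjusted p = 0.711 by edgeR).

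Bub1, a kinase of the same checkpoint, measured 12.9, 14.0, 16.6 and 14.1 CPM in knockout 1 to 4, against 7.37, 16.1, 11.6 and 9.62 CPM in wildtype 1 to 4. Wildtype 2 lay among the knockout libraries and the other 3 wildtype libraries below them. For Bub1 the log2 fold change was 0.37 ± 0.21 (SE; BH-adjusted p = 0.855 by edgeR), and it was 0.59 without wildtype 2 and 0.21 without wildtype 1. Birc5 encodes survivin, which with Aurora B kinase forms the chromosomal passenger complex. Birc5 measured 37.4, 30.97, 44.2 and 37.98 CPM in knockout 1 to 4, against 38.8, 42.6, 41.3 and 36.5 CPM in wildtype 1 to 4, with knockout libraries at both ends.

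Aurkb, the gene of Aurora B, had a log2 fold change of -0.19 ± 0.14 (SE) and Cdc20, which activates the ligase that starts anaphase, one of -0.17 ± 0.17. Plk1 stood at 0.16 ± 0.13 and Aurka, the centrosomal Aurora kinase gene, at 0.03 ± 0.14. All 4 intervals included 0.

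In the 6 genes of spindle motors and kinetochore, 5 log2 fold changes were negative and 1 positive, all between -0.07 and 0.06, with a median of -0.04. Cenpf, a large kinetochore protein, measured 39.0, 29.9, 42.7 and 48.2 CPM in knockout 1 to 4, against 32.02, 43.7, 31.3 and 45.9 CPM in wildtype 1 to 4. Kif23 and Kif20a encode kinesins of the central spindle and cytokinesis. Kif23 measured 30.7, 30.8, 32.3 and 36.2 CPM in knockout 1 to 4, against 29.2, 37.3, 31.2 and 36.9 CPM in wildtype 1 to 4. Kif20a measured 26.6, 26.6, 23.5 and 26.6 CPM in knockout 1 to 4, against 23.1, 27.4, 29.6 and 28.3 CPM in wildtype 1 to 4. The groups overlapped for all 3. Intervals were widest for Cenpe (-0.68 to 0.53), a kinesin of the kinetochore, and Tpx2 (-0.57 to 0.53), which assembles spindle microtubules, and narrowest for the spindle motor Kif11 (-0.18 to 0.16).

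Within each group, libraries differed in which genes they held most of. The median over the 38 genes of the log2 deviation from each gene's mean over 8 libraries was 0.04, -0.10, 0.08 and -0.02 in knockout 1 to 4, against -0.02, 0.10, 0.01 and -0.05 in wildtype 1 to 4. Knockout 3 was the highest library for 12 genes and wildtype 2 for 8, while knockout 2 and wildtype 1 were each the lowest for 11. By role, the largest median deviation was in knockout 3 for the mitotic kinase genes, at 0.37.

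The roles did not share 1 order of libraries. Knockout 1 stood at 0.14 for G1 to S control and 0.10 for replication, but at -0.15 for mitotic entry and -0.08 for the spindle genes. Wildtype 4 stood at -0.13 for G1 to S control but at 0.13 for the spindle genes. Over the 8 libraries, the Pearson r between pairs of genes had a median of 0.13 (703 pairs, between -0.95 and 0.90), with 0.28 within the replication genes (66 pairs) and 0.42 within the spindle genes (15 pairs). These pairs share libraries and scaling, and the values are descriptions. Genes grouped by promoter letters showed like values: the median log2 fold change was -0.01 for the 12 genes with CHR letters and -0.04 for the 8 with E2F letters.

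**Figure D5:**
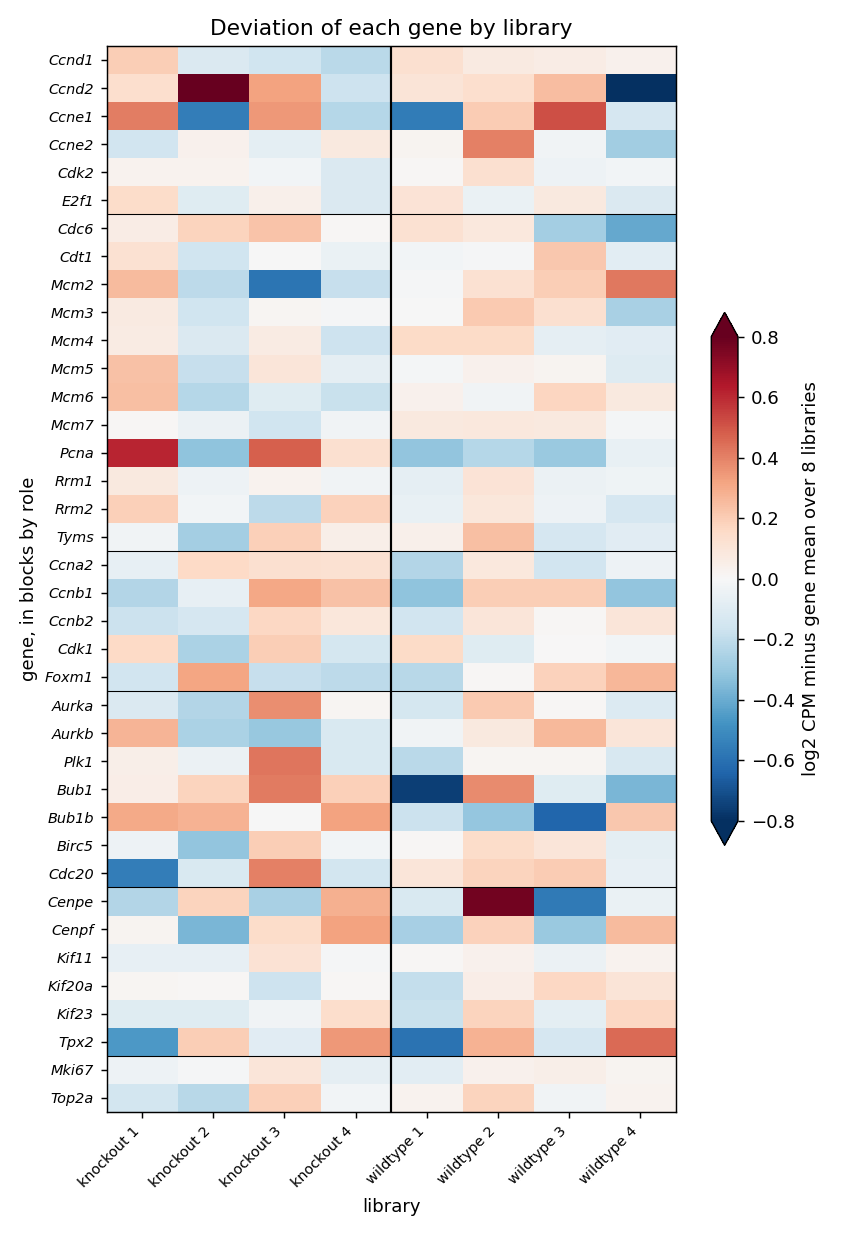
Log2 CPM minus the gene's mean over 8 libraries (colour, red above and blue below) for each gene (rows, in blocks by role) and library (columns, knockout left of wildtype). Columns within a group differ, as in the red cells of knockout 3 among the mitotic kinase genes, and no block has 1 colour in knockout and the other in wildtype.

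The rest of the cell cycle machinery was read from 5 further lists, and 0 of their genes passed edgeR's threshold or that of DESeq2. Of 30 other replication genes, 21 were negative and 9 positive, with a median log2 fold change of -0.05. The 2 with the smallest p were Lig1, the DNA ligase that joins Okazaki fragments, and Pole, the catalytic subunit of the leading-strand polymerase. Lig1 averaged 52.8 ± 5.35 CPM in knockout kidneys and 62.5 ± 5.46 CPM in wildtype kidneys (SD, n = 4 each), and Pole 20.4 ± 1.37 and 24.2 ± 2.99 CPM in the same order. Their log2 fold changes were -0.25 ± 0.10 and -0.24 ± 0.11 (SE; BH-adjusted p = 0.711 and 0.805 by edgeR).

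Of 40 other mitotic genes, 21 were negative and 19 positive, with a median of -0.04. Nek2, a centrosomal kinase gene, averaged 25.8 ± 2.03 CPM in knockout kidneys and 21.1 ± 2.44 CPM in wildtype kidneys (log2 fold change 0.29 ± 0.11; BH-adjusted p = 0.70 by edgeR). Cenpa, the histone variant of centromeres, stood at -0.24 ± 0.13.

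The E2F, RB and MYB family, which controls both programmes, had 9 negative and 8 positive of 17 and a median of -0.01. Tfdp2, which encodes a partner protein of E2F factors, measured 68.0, 62.8, 84.5 and 57.6 CPM in knockout 1 to 4, against 45.5, 53.7, 49.03 and 55.7 CPM in wildtype 1 to 4. Every knockout library lay above every wildtype library, as in 1.97% of all genes tested, but the log2 fold change, 0.42 ± 0.12 (SE), did not pass (BH-adjusted p = 0.475 by edgeR). E2f7, a repressor of the E2F family, stood at 0.53 ± 0.20 (SE), with groups that overlapped.

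Of 7 CDK inhibitor genes tested, 5 were negative and 2 positive, with a median of -0.05, and the smallest p belonged to Cdkn2d (-0.13) and Cdkn3 (0.20). Cdkn1c, named after its values were seen, encodes p57 and had the highest level of them, at 352 ± 71.1 TPM in knockout kidneys and 408 ± 49.1 TPM in wildtype kidneys (SD, n = 4 each). In CPM its means were 534 in knockout and 569 in wildtype kidneys, with a log2 fold change of -0.09 ± 0.11 (SE). Of 9 other cyclins and CDKs, 6 were negative and 3 positive, with a median of -0.03. Cdk7 and Cdk6 had the smallest p, at log2 fold changes of 0.10 and -0.10.

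Markers of the cell types that a whole kidney holds were summed in CPM over the genes that passed the filter. The 8 nephron progenitor genes summed to 160.0 to 206 CPM in knockout libraries and 169 to 185 CPM in wildtype libraries. Most of these sums came from Pax2 (means of 70.3 and 65.9 CPM in knockout and wildtype kidneys) and Sall1 (58.2 and 60.5 CPM). Cited1, Eya1 and Osr1 were low, at means of 2.41, 1.66 and 2.22 CPM in knockout and 3.15, 1.88 and 2.61 CPM in wildtype kidneys. The sums therefore say little about those 3 genes. Of the 8, 5 log2 fold changes were negative and 3 positive. Tmem100 and Meox1 had the smallest p of them, at log2 fold changes of 0.41 ± 0.19 and -0.21 ± 0.11 (SE). Six2 itself did not pass the filter. Singled out after its values were seen, it was at 0.07 ± 0.03 TPM in knockout and 0.08 ± 0.05 TPM in wildtype kidneys (SD, n = 4 each).

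Red blood cell precursors also divide, and the 9 erythroid genes summed to 2210 to 3070 CPM in knockout and 2140 to 2970 CPM in wildtype libraries. Slc4a1, the anion exchanger of red cells, stood at 0.33 ± 0.12 and the globin gene Hba-a1 at 0.21 ± 0.11 (log2 fold change, SE). The 6 macrophage genes summed to 97.8 to 108 CPM in knockout and 104 to 109 CPM in wildtype libraries. Csf1r, a receptor of macrophages, stood at -0.18 ± 0.07 with every knockout library below the wildtype ones, as in 2.06% of all genes tested. C1qb stood at 0.13 ± 0.12, and the lowest BH-adjusted p of the macrophage list was 0.706 by edgeR.

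The 7 stroma genes summed to 6000 to 7070 CPM in knockout and 5910 to 6830 CPM in wildtype libraries. Their smallest p belonged to Pdgfrb, a pericyte receptor gene, at -0.21 ± 0.06, and the matrix gene Lum, at 0.30 ± 0.11. The groups did not overlap for Pdgfrb, lower in knockout as in 2.06% of all genes tested, nor for Lum, higher as in 1.97%. The lowest BH-adjusted p of the stroma list was 0.547 by edgeR. The 6 endothelium genes summed to 639 to 743 CPM in knockout and 716 to 784 CPM in wildtype libraries, with the receptor gene Flt1 at -0.27 ± 0.12 and Emcn at -0.19 ± 0.09.

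The 7 kidney epithelium genes summed to 5330 to 6230 CPM in knockout and 5460 to 5760 CPM in wildtype libraries. Slc12a3 of that list fell (log2 fold change -0.91 ± 0.09, SE; BH-adjusted p = 0.00634 by edgeR), and 0 other genes of the marker lists passed with edgeR. DESeq2 called Slc12a3 and 2 further epithelium genes, Umod (0.54 ± 0.08) and Nphs1 (-0.53 ± 0.12). Of the adrenal cortex list only Star passed the filter, at 2.89 to 5.13 CPM in knockout and 3.81 to 4.95 CPM in wildtype libraries. The summed ranges of the groups overlapped in each of the 7 marker lists. Ahsp of the erythroid list was not matched to a row, and no matched gene of the lists was at 0 in all libraries. The part of these cells in the levels of the proliferation genes was not tested.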

How the data were processed

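The 8 RNA-seq libraries were made from total RNA of whole kidney with a strand-specific kit, per the labels' protocols. The submitters' processing notes name Salmon (no version), DESeq2 1.14.1 and mm10, with no annotation release named. The authors deposited estimated counts per gene, already whole numbers, and TPM per gene with symbols. The count table has no gene names, so its 47729 rows were matched by order with the TPM table; the match was checked on 13251 genes (SD over libraries of the log2 count to TPM ratio at most 0.00862). Counts were filtered with filterByExpr, scaled by TMM and tested, knockout against wildtype, with edgeR 4.0.16 (quasi-likelihood, robust, two-sided, R 4.3.3) and Benjamini-Hochberg adjustment over 18548 genes at 0.05; the test was tried on simulated data. SE is the absolute log2 fold change over the square root of F. Every pair of libraries differed by more than sampling noise (lowest chi-square over its degrees of freedom, 11.2). Coordinates are from GENCODE for GRCm38, which mm10 denotes.

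The members and lists were chosen with earlier results of these data known. Library values are given for Mki67, Top2a and, per role, the 2 genes with the smallest p and the 1 with the highest TPM; of each other list, genes past the threshold or the 2 with the smallest p. Alternatives were other scalings and filters, DESeq2 1.42.0, limma 3.58.1 (voom; log2(TPM + 1) or + 0.1), a replicate block and each library left out. Leaving out the 2 libraries with Xist reads was also tried. Summing Pcna with Pcna-ps2 was chosen after seeing the data.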

Additional observations from a re-analysis of the deposited data

Results flagged for a closer look

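Of 76 sets of 4 libraries looked at (38 genes in 2 groups), 5 held a library that stood away from the remaining 3 by Dixon's test. About 1 in 20 sets, or 3.8, would do so by chance. Ccnd2 was at 52.3 CPM in wildtype 4, where the other wildtype libraries held 174 to 192 CPM. Mcm7 was at 78.1 CPM in wildtype 4, with the others at 83 to 83.6 CPM. Foxm1 was at 37.9 CPM in knockout 2, with the other knockout libraries at 26.3 to 27.4 CPM. Bub1b was at 24.4 CPM in knockout 3, with the others at 29.7 to 30.7 CPM. Kif20a was at 23.5 CPM in knockout 3, with the others at 26.6 CPM.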

How the results depend on the processing

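Under all 21 settings 0 of the 38 genes passed the threshold, and the lowest adjusted p of the 15 genes given by library was 0.16, for Pcna with edgeR without knockout 2 (log2 fold change 0.64). That fit used the Pcna row alone, and knockout 2 was the knockout library with the largest share of counts on Pcna-ps2 (42.8%). With the 2 rows summed in all 8 libraries the log2 fold change was 0.03 (BH-adjusted p = 0.981 by edgeR). The number of genes called over the whole table, 15, became 27 with no filter, 153 with DESeq2, 6 with limma on unfiltered log2(TPM + 1), 3 without the 2 libraries with Xist reads, and 10 to 52 with 1 library left out. The 25 negative members became 31 in the 3 limma fits on log2 TPM, 21 with upper-quartile scaling, 16 without the 2 Xist libraries and 17 to 26 with 1 library left out. Their median, -0.02, was -0.14 on log2(TPM + 1), with or without a filter, and -0.16 on log2(TPM + 0.1), where the median of all genes was -0.13, -0.04 and -0.15 in the order filtered, unfiltered and 0.1; with 1 library left out it was -0.05 to 0.01. Of the 15 genes, 10 kept their sign under every setting. With upper-quartile scaling Mki67 turned to 0.00213 and Cdk1 to 0.00199. Without the Xist libraries Mki67 turned to 0.00334, Cdk1 to 0.061 and Birc5 to 0.0188. Cenpf turned to -0.0713 on log2(TPM + 1), filtered or not, and to -0.0793 on log2(TPM + 0.1). With 1 library left out, the log2 fold change ranged from -0.0467 to 0.00889 for Mki67, from -0.0837 to 0.0635 for Cdk1, from -0.0397 to 0.18 for Cenpf, from -0.167 to 0.000197 for Birc5 and from -0.112 to 0.00315 for Kif23. The cause was not tested. With the replicate number as a block, 10 genes and 0 members were called. Same-numbered libraries did not deviate together (r of 0.018, -0.081, 0.036 and 0.014). The labels do not say whether the numbers pair libraries, and these values cannot decide it. The 95% intervals give the precision that these 8 libraries allow.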

Other observations

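The genes outside the list whose log2 CPM followed the mean of the 38 scaled genes most closely over the 8 libraries were Gm37931 (Pearson r = 0.962), Prmt6 (0.961), 4732465J04Rik (0.955), Nrtn (0.946) and Glt28d2 (0.94), of 18510 genes searched. They were picked for this likeness, they share libraries and scaling with the members, and the mean they follow was 0.17, -0.50, 0.32 and -0.13 in knockout 1 to 4, against -0.34, 0.63, 0.05 and -0.21 in wildtype 1 to 4 (SD units of each gene).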
